A study of Mus musculus with 26 samples.

Results

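Batf and 8 of its AP-1 relatives were followed across the CD4+ T cell libraries of the study: the paralogs Batf2 and Batf3, the Jun members Junb and Jund, the Fos members Fosl1 and Fosl2, the Jun dimerization protein gene Jdp2, and Bach1. They were taken by symbol as a family, with earlier results of these data known, and all 9 were found among the 24411 gene rows of the count table. Each of the 13 groups had 2 poly(A) RNA libraries, made from freshly sorted CD4+ T cells of the spleen and lymph nodes of C57BL6/J animals. The comparisons asked how the family differs between T cell states, and whether any relative was higher once Batf was lost.

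The groups fall into 5 sort sets, and every Treg carried a reporter in Foxp3. The germline set held WT Treg (CD4+hCD2+, Foxp3-IRES-hCD2), BATFKO Treg of the same gate from Batf-/- mice, and WT Tconv, the CD4+hCD2- cells. The cell type label of the Tconv libraries also says Treg, and they were grouped by their title. Deletion was restricted to Foxp3-expressing cells in the YFP set, where BATFcKO Treg_YFP carried Batfflox/flox with Foxp3-driven Cre. Their WT Treg_YFP controls carried the same Cre allele (Foxp3-IRES-YFPCre/Foxp3-IRES-hCD2), and both were sorted as CD4+YFP+hCD2-, so Treg using the other Foxp3 allele lay outside the gate. Foxp3R397W Treg and Foxp3KO Treg were CD4+hCD2+GFP- cells with the alleles Foxp3R397W-IRES-hCD2 and Foxp3fs101-IRES-hCD2, each over Foxp3-IRES-GFP. Each of those mutants had its own WT control with a wild-type hCD2 allele over the GFP allele, so wild-type GFP+ Treg were present in the animals of all 4 groups and were sorted away. From WT mice, central Treg (cTreg, CD4+hCD2+CCR7hiCD62LhiCD44lo), effector Treg (eTreg, CD4+hCD2+CCR7loCD62Llo), naive cells (Tnaive, as cTreg but hCD2-) and effector conventional cells (Teff, as eTreg but hCD2-) formed the sorted set. Age, sex and the number of animals behind each library are not given in the labels, so p-values measure only the spread between these libraries, which may be technical.

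AP-1 factors bind DNA as pairs of basic leucine zipper (bZIP) proteins. BATF lacks a transactivation domain of its own, pairs with a Jun protein, often JUNB, and binds composite sites together with IRF4 or IRF8 in activated T cells. In dendritic cells BATF and BATF2 can stand in for BATF3, which is the precedent for asking about compensation here. FOSL1 and FOSL2 pair with Jun proteins, JDP2 is a small bZIP protein that represses AP-1 sites, and BACH1 pairs with small MAF proteins and represses genes of heme and oxidative stress responses.

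Library totals ran from 5615929 to 7300917 counts in the germline, YFP and Foxp3R397W sets. They ran from 9774025 to 10641332 in the sorted set and from 26321134 to 34613707 in the Foxp3KO set. Groups were compared only within a set, apart from the difference of the 2 Batf deletions. The main tests took their spread from 1 model of all groups. The summed level of 5 Treg markers was 1488 to 3827 CPM (read counts scaled to one common library total) in Treg libraries, 18.9 to 182.3 in Tnaive and Tconv, and 400.1 and 580.9 in Teff. Markers of myeloid and dendritic cells summed to 381.1 and 118.8 CPM in the 2 Teff libraries and to 9.74 to 29.8 CPM in all others. CD8 and NK markers summed to 241.6 and 177.7 CPM in Teff and to 15.9 to 71.0 elsewhere. Stromal markers summed to 298.3 and 334.5 CPM in BATFKO Treg and 204.6 and 198.2 in WT Treg, of which Pecam1 made up 266.1 to 281.7 and 192.6 to 199.3. Lamb1 stood at 5.88 and 14.5 CPM in BATFKO Treg against 0.136 and 0.165 in WT Treg, and Gja1 at 5.21 and 13.5 against 0.680 and 0.165. Fn1 stood at 6.415 and 7.16 against 0.136 and 0.826, and Igfbp7 at 13.1 and 15.8 against 1.90 and 0.826. Col1a1 went the other way, at 0.802 and 1.17 against 1.495 and 2.81. Dcn and Pdgfra were at 0 counts in both groups. Col3a1 had 0 counts in BATFKO Treg and 1 and 0 in WT Treg. Of 11 tested stromal markers, 5 were called higher and 0 lower in BATFKO Treg, and 1 higher and 0 lower in BATFcKO Treg_YFP. The part of stromal cells in the changes of the members was not tested.

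**Figure D1:**
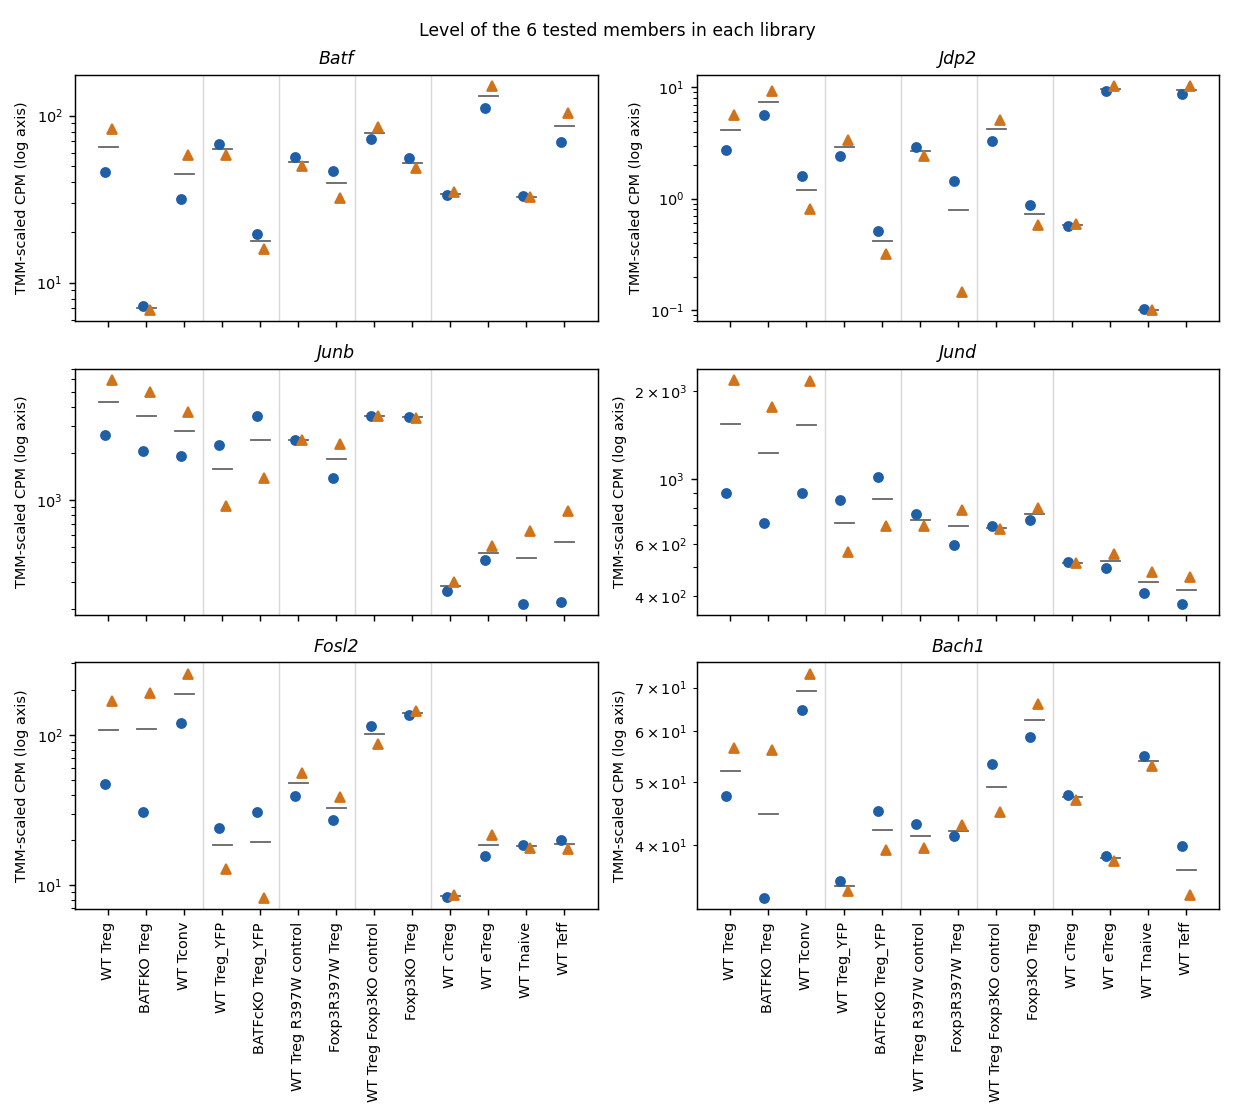
TMM-scaled CPM (vertical, log axis) of the 6 members with enough reads to be tested, in each of the 26 libraries; circles are the library with the lower number of a group, triangles the one with the higher number, short bars the group mean, and vertical lines separate the sort sets. Batf and Jdp2 are high in eTreg and Teff, and Jdp2 runs from 0.0999 CPM in Tnaive to 10.3 CPM in Teff, while Junb, Jund and Fosl2 differ within groups by library number in the germline set.

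Batf, Jdp2 and Fos lie next to each other on mouse chromosome 12. On mm10, Batf spans chr12:85686669-85709087 and Jdp2 chr12:85599027-85639878, both on the plus strand and 46.8 kb apart. The letters before the annotated starts of these 2 genes are shown because Batf and Jdp2 were the members called higher in both effector populations. They are the parts of RefSeq promoter windows (GRCm38.p6, plus strand) that no annotated exon covers. TGACG, the opening of the cyclic AMP response site to which ATF and AP-1 pairs bind, is in capitals. Of the Jdp2 windows only the 1 that holds TGACG is shown, and it lies before a later start inside the annotated span of Jdp2.
Batf, chr12:85686470-85686668: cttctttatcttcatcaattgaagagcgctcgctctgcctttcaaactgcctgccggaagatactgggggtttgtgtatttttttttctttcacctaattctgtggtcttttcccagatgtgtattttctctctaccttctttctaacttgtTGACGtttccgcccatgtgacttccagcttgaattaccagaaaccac
Jdp2, chr12:85599228-85599415: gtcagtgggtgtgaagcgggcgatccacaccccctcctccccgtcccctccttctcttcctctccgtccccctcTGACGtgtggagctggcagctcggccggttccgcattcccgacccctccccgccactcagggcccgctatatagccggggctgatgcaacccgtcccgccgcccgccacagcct
RefSeq windows of 300 bases were found for 7 of the 9 members, 9 windows in all. On either strand TGACG stood in 3 of these 9 windows, those of Batf and Junb and 1 of Jdp2, against 20.8% of 32851 promoter windows. TGANTCA, with any base at N and so a wider pattern than the AP-1 site, stood in none of the 9 (7.81% of all windows). The full site TGACGTCA stood in none (1.79%). Every TGACGTCA also counts as a TGACG.

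Among the 3 BATF paralogs only Batf was expressed at a level that could be tested. Batf2 had 9 reads over all 26 libraries, at most 1 in a library and none in 17. Batf3, chr1:191097847-191108945, had 28 reads, of which 9 and 8 fell in the 2 Teff libraries (0.879 and 0.730 CPM). No other library held more than 3 Batf3 reads. Counts of Batf3 were 17 in Teff and 1 in Tnaive, a ratio of 15.9 with an exact 95% interval of 2.49 to 665, and 16.7-fold (2.62 to 699.8) higher than the 1 read of eTreg; these intervals cover counting error only. Batf3 is a defining gene of cross-presenting dendritic cells. Clec9a, another gene of those cells, stood at 6.16 and 2.10 CPM in the same 2 Teff libraries and at no more than 0.482 CPM in any other. Of 15 tested myeloid and dendritic markers, 13 were called higher and 1 lower in Teff than in Tnaive, but not all were confined to Teff. Xcr1 stood at 8.305 and 5.20 CPM in Teff, 6.82 and 2.67 in BATFKO Treg and 3.25 and 2.59 in eTreg. Zbtb46 stood at 2.44 and 2.55 CPM in Teff and at 3.06 and 4.42 in eTreg. Batf3 had 1 read in BATFKO Treg and 1 in eTreg. The part of dendritic cells in the Batf3 reads was not tested. At these depths 3 reads in a library, taken as the lowest level that can be held apart from 0, were 0.401 to 0.531 CPM in the germline, YFP and Foxp3R397W sets and 0.274 to 0.306 in the sorted set.

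Batf itself was high in effector cells and low in the knockouts. In eTreg Batf stood at 111.6 and 151.0 CPM, in Teff at 69.4 and 103.5, in cTreg at 33.3 and 35.0 and in Tnaive at 32.9 and 32.7. Both effector populations lay above both resting ones, and cTreg and Tnaive were close to each other. BATFKO Treg kept 7.22 and 6.83 CPM of Batf against 46.1 and 82.9 in WT Treg, and BATFcKO Treg_YFP kept 19.5 and 15.9 against 67.8 and 58.5. Reads from outside a deleted part still count. In BATFcKO Treg_YFP, and between effector and resting cells, fewer cells with Batf cannot be told apart here from less Batf RNA per cell.

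Per kilobase of exon, Junb and Jund were the most abundant members in every group. In WT Treg, levels per kilobase were 1864 ± 1025 CPM for Junb, 923.9 ± 546.9 for Jund, 45.9 ± 18.5 for Batf, 11.1 ± 8.82 for Fosl2, 8.43 ± 1.01 for Bach1 and 1.94 ± 0.954 for Jdp2 (mean ± SD, n = 2). Neighbours in that order overlapped for Junb and Jund and for Fosl2 and Bach1. In eTreg the level per kilobase was 314.8 ± 23.9 CPM for Jund, 200.7 ± 28.2 for Junb, 93.4 ± 19.8 for Batf, 6.18 ± 0.0785 for Bach1, 4.53 ± 0.362 for Jdp2 and 1.93 ± 0.447 for Fosl2, with no overlap between neighbours.

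The first question was whether any relative was higher after germline loss of Batf. Batf fell in BATFKO Treg by 3.19 on the log2 scale (SE 0.33, edgeR adjusted p = 1.74e-05), and it was the only member called at an adjusted p below 0.05, where 2.69% of 12227 tested genes were called in either direction and 1.05% were called higher. None of the 5 tested relatives was called higher: edgeR gave 0 at an unadjusted p below 0.05 as well, and DESeq2 called 0. The Batf call was lost when the model held only WT Treg and BATFKO Treg (edgeR adjusted p = 0.139), a fit in which 0 of all genes were called, with the change still at -3.18.

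Jdp2 had the largest increase of any relative in BATFKO Treg but missed the threshold. Jdp2 stood at 5.61 and 9.16 CPM in BATFKO Treg and 2.72 and 5.62 in WT Treg, so the lower knockout library and the higher control library had almost the same level. Its log2 change was 0.84 ± 0.41 (95% interval -0.018 to 1.69, edgeR adjusted p = 0.438), which allows a rise of up to 3.22-fold. Junb, the usual partner of BATF, stood at 2067 and 4938 CPM in BATFKO Treg and 2620 and 5956 in WT Treg. Its log2 change was -0.29 ± 0.65 (-1.66 to 1.08, edgeR adjusted p = 0.979), and the interval reaches from 0.317 to 2.11 times the control level.

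Jund, a Jun member that is expressed in resting cells too, stood at 707.9 and 1758 CPM in BATFKO Treg and 896.4 and 2186 in WT Treg (log2 change -0.32 ± 0.41, edgeR adjusted p = 0.921). Fosl2 ranged from 30.6 to 189.9 CPM in BATFKO Treg and from 47.4 to 168.2 in WT Treg, with a log2 change of 0.03 ± 0.65 (-1.35 to 1.41, edgeR adjusted p = 1). For both genes the groups overlapped. Bach1 stood at 33.1 and 56.1 CPM in BATFKO Treg and 47.7 and 56.5 in WT Treg, with a log2 change of -0.23 ± 0.17 (edgeR adjusted p = 0.76). Without BATFKO Treg 2, Bach1 was called lower at -0.65 (edgeR adjusted p = 0.0311), so its call turns on 1 library. Batf2 and Fosl1 held 0 and 3 reads in BATFKO Treg and 0 and 3 in WT Treg, and Batf3 held 1 and 0.

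**Figure D2:**
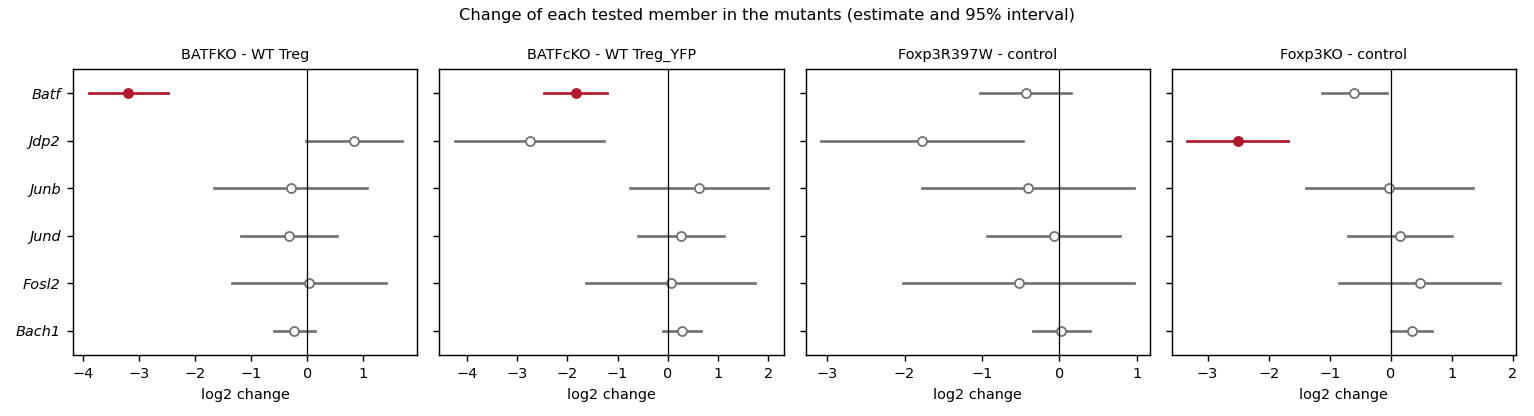
Log2 change (horizontal) of each tested member in the 4 mutants against their own controls; points are the edgeR estimates, lines their 95% intervals, and red marks an adjusted p below 0.05. Batf is called lower in both Batf deletions and Jdp2 in Foxp3KO Treg only, and in BATFcKO Treg_YFP the whole Jdp2 interval (-4.24 to -1.27) lies below 0 without a call.

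The same question was asked of the deletion restricted to Foxp3-expressing cells. Batf fell by 1.84 on the log2 scale (SE 0.30, edgeR adjusted p = 0.00191) and was again the only member called, against 2.04% of all tested genes in either direction and 0.319% higher. Without BATFcKO Treg_YFP 2 the Batf change was -1.69 and not called (edgeR adjusted p = 0.0634). None of the 5 tested relatives was higher by edgeR, also at an unadjusted p below 0.05, or by DESeq2.

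The Jdp2 estimate had the opposite sign to that in germline BATFKO Treg, with neither change called in the main test. Jdp2 stood at 0.517 and 0.322 CPM in BATFcKO Treg_YFP and at 2.43 and 3.35 in WT Treg_YFP, 5 reads against 38. Both deleted libraries lay below both controls. They held 3 and 2 reads, at and below the 3 reads taken as the lowest level that can be held apart from 0. The ratio of counts was 6.89-fold higher in the controls, with an exact 95% interval of 2.71 to 22.4 for counting error. Its log2 change of -2.76 ± 0.71 had an edgeR adjusted p of 0.0504, just outside the threshold; DESeq2 called it lower (DESeq2 adjusted p = 0.019), and so did edgeR without the filter on low counts (0.0123), with library totals alone (0.0422) and with the 2 groups alone (0.0171). Without any 1 of the 4 libraries it was not called (edgeR adjusted p from 0.0916 to 0.362).

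The other relatives were not called. Junb stood at 3497 and 1381 CPM in BATFcKO Treg_YFP and 2256 and 915.2 in WT Treg_YFP, with a log2 change of 0.62 ± 0.65 (-0.75 to 1.99, edgeR adjusted p = 0.844). Jund stood at 1016 and 691.4 against 851.8 and 565.7 CPM (0.27 ± 0.41, edgeR adjusted p = 0.908). The groups overlapped for both Jun genes, while the libraries numbered 1 were above those numbered 2 in each group. Fosl2 stood at 30.7 and 8.20 CPM against 24.1 and 12.8 (0.05 ± 0.79, edgeR adjusted p = 0.996). Bach1 was slightly above its controls in both libraries, at 45.1 and 39.4 against 35.3 and 34.0 CPM (0.29 ± 0.18, edgeR adjusted p = 0.664).

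**Figure D3:**
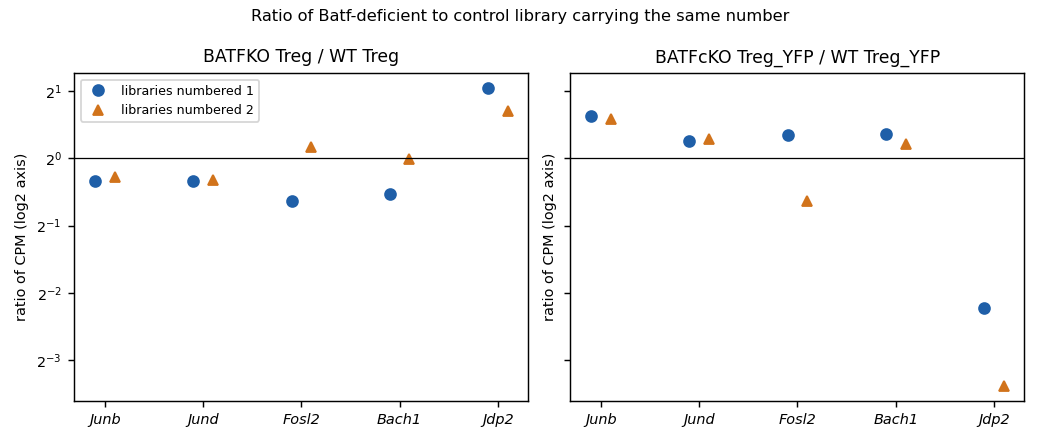
Ratio of the CPM (vertical, log2 axis) of a Batf-deficient library to the control library with the same number, for 5 relatives in both Batf deletions; circles are libraries numbered 1, triangles libraries numbered 2, and the line at 2 to the power 0 is a ratio of 1. Junb lies at 0.789 and 0.829 in the germline knockout and at 1.55 and 1.51 in the Foxp3-Cre deletion, and Jdp2 lies above 1 in the first and below it in the second.

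The 2 deletions were set against each other in the same model. The difference of their Jdp2 log2 changes was 3.59 ± 0.82 (1.88 to 5.31), with an unadjusted edgeR p of 0.000342 and an adjusted p of 0.333. In this difference edgeR called 0% of the tested genes, 633 of 12227 had an unadjusted p below 0.05, 2 of the 6 members (Batf and Jdp2) among them, and DESeq2 called 10 genes and 0 members. Without the filter on low counts Jdp2 was called in the difference (edgeR adjusted p = 0.0426). Batf differed by -1.35 ± 0.45 (edgeR adjusted p = 0.695). For Junb the difference was -0.91 ± 0.92 and for Bach1 -0.51 ± 0.25, neither called.

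Junb, Jund and Fosl2 varied with genes of the immediate early response in the germline and YFP sets. In the germline set, the summed level of 24 immediate early and dissociation stress genes was 10760 and 15160 CPM in the WT Treg libraries; it was 9614 and 13790 for BATFKO Treg and 7469 and 10350 for Tconv. Of these 24 genes, 20, 17 and 19 were higher in the library numbered 2, as were Junb, Jund and Fosl2. In the YFP set the sum was 7293 and 4580 CPM in WT Treg_YFP and 9950 and 6160 in BATFcKO Treg_YFP, with 21 and 19 of the 24 genes higher in the library numbered 1. Of these genes edgeR called 0 in BATFKO Treg (6 at an unadjusted p below 0.05, 0 by DESeq2) and 1 in BATFcKO Treg_YFP, the phosphatase gene Dusp2, which rose by 0.62 ± 0.13 on the log2 scale (edgeR adjusted p = 0.0133), with 5 at an unadjusted p below 0.05 and 2 called by DESeq2. In Teff, 22 of the 24 genes were higher in the library numbered 2, as were Junb and Jund, while Fosl2 was lower there (17.3 against 20.0 CPM). The part of the variation between libraries in the changes of the Jun and Fos members was not tested.

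Irf4, whose protein binds with BATF, was higher in germline BATFKO Treg. Irf4 stood at 298.6 ± 16.9 against 165.2 ± 2.40 CPM (log2 change 0.85 ± 0.12, edgeR adjusted p = 4.24e-04). In the Foxp3-Cre deletion it stood at 134.2 ± 10.7 against 107.1 ± 0.0369 CPM and was not called (0.33 ± 0.13, edgeR adjusted p = 0.285). The difference of the Irf4 changes was not called either (0.53 ± 0.17, edgeR adjusted p = 0.676). Irf8, the other partner, stood at 71.5 ± 5.64 against 35.4 ± 1.81 CPM in BATFKO Treg (1.01 ± 0.32, edgeR adjusted p = 0.129).

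Of 17 other tested AP-1 and ATF genes, 0 were called in BATFKO Treg and 0 in BATFcKO Treg_YFP by edgeR, with 2 in each at an unadjusted p below 0.05, and DESeq2 called 0 and 1. Their median log2 change was -0.14 and 0.15, beside 0.00 and -0.02 over all genes. Jun, the founding AP-1 gene, stood at 1356 ± 829.4 against 1737 ± 788.8 CPM in BATFKO Treg and 1008 ± 452.2 against 592.5 ± 322.9 in BATFcKO Treg_YFP. Of 17 tested bZIP genes outside AP-1, 3 fell and 0 rose in BATFKO Treg, and 1 fell and 0 rose in BATFcKO Treg_YFP, with medians of -0.10 and 0.02 on the log2 scale, where 2.69% and 2.04% of all genes were called. At an unadjusted p below 0.05 there were 4 and 5 of these genes, and DESeq2 called 3 and 3. Cebpa, a C/EBP factor, was the gene lower in both, at 0.0833 ± 0.118 against 16.0 ± 11.5 CPM (edgeR adjusted p = 0.00176) and 0.339 ± 0.252 against 9.98 ± 3.05 CPM (edgeR adjusted p = 0.0202). Tef and Hlf, PAR-domain factors, fell in BATFKO Treg, Tef from 68.9 ± 1.66 to 49.6 ± 1.93 CPM and Hlf from 3.49 ± 0.902 to 0.267 ± 0.378 CPM. Of 15 MAP kinase genes upstream of AP-1, edgeR called 0 in either deletion, with 2 and 1 at an unadjusted p below 0.05, and DESeq2 called 0.

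Loss of Foxp3 function left most members uncalled, and Jdp2 was the exception. In Foxp3KO Treg, Jdp2 stood at 0.886 and 0.576 CPM against 3.29 and 5.09 in the controls, 45 reads against 232, with no overlap. It fell by 2.51 on the log2 scale (SE 0.39, edgeR adjusted p = 3.29e-04) and was the only member called, where 9% of all tested genes were. In Foxp3R397W Treg, Jdp2 stood at 1.44 and 0.146 CPM against 2.90 and 2.41, 10 reads against 34 (-1.78 ± 0.62, edgeR adjusted p = 0.116). Without Foxp3R397W Treg 1 it was called lower at -4.05 (edgeR adjusted p = 0.026), a value that rests on the 1 read of the other mutant library. No member was called in Foxp3R397W Treg by edgeR, against 6.13% of all tested genes, with 1 member at an unadjusted p below 0.05 and 0 called by DESeq2.

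Batf was below both controls in both Foxp3 mutants without a call. Batf stood at 46.3 and 32.2 CPM in Foxp3R397W Treg against 56.2 and 49.6 (-0.43 ± 0.28, edgeR adjusted p = 0.525) and at 55.9 and 48.6 in Foxp3KO Treg against 72.3 and 85.7 (-0.60 ± 0.25, edgeR adjusted p = 0.187). With the 4 libraries of the Foxp3KO set alone in the model, Batf was called lower there (edgeR adjusted p = 0.00428), and Bach1 (0.0253) and Jund (0.0441) were called higher. In that fit 4155 of all genes were called, against 1101 in the model of all groups. Bach1 stood at 58.8 and 66.0 CPM in Foxp3KO Treg against 53.4 and 45.0, and Jund at 723.5 and 795.5 against 689.9 and 674.7. Junb stood at 3441 and 3400 against 3498 and 3465 CPM in the Foxp3KO set and at 1391 and 2310 against 2447 and 2453 in the Foxp3R397W set, a narrow spread in the first and a wide one in the second. Fosl2 stood at 136.6 and 144.5 CPM in Foxp3KO Treg against 115.1 and 87.6 (0.47 ± 0.62, edgeR adjusted p = 0.774), and at 27.3 and 38.5 against 39.1 and 56.1 in Foxp3R397W Treg. Fosl1, chr19:5447547-5455946, had 22 reads in Foxp3KO Treg and 17 in its controls, a ratio of 1.14 (exact 95% interval 0.577 to 2.28).

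Around the members, Cebpa fell in both Foxp3 mutants, to 1.10 ± 0.932 from 13.3 ± 2.85 CPM with the R397W allele (edgeR adjusted p = 0.0102) and to 1.66 ± 0.947 from 19.4 ± 10.5 in Foxp3KO (edgeR adjusted p = 2.93e-04). Nfe2l2, a CNC factor that competes with BACH1, rose in both, by 0.88 ± 0.12 and 0.54 ± 0.11 on the log2 scale. Bach2, the paralog of Bach1, rose by 0.36 ± 0.10 and 0.57 ± 0.10. Of the 17 other bZIP genes tested, 3 rose and 1 fell with the R397W allele, and 2 rose and 1 fell in Foxp3KO. Of the 17 AP-1 and ATF genes, Crem fell with the R397W allele and Atf6 in Foxp3KO, and none rose. These mutants share no library with the Batf deletions.

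Effector cells were compared with resting cells in both lineages. In eTreg against cTreg, Batf rose by 1.94 ± 0.27 on the log2 scale (edgeR adjusted p = 1.64e-05) and Jdp2 by 4.04 ± 0.49 (edgeR adjusted p = 2.69e-06), 2 of 6 tested members, a share near the 31.1% called among all genes. Jdp2 stood at 9.18 and 10.3 CPM in eTreg against 0.564 and 0.594 in cTreg, 203 reads against 12, and at 8.70 and 10.3 CPM in Teff against 0.102 and 0.0999 in Tnaive, 202 reads against 2. For Teff the ratio of counts was 94.5 (exact 95% interval 25.8 to 785.7). The summed level of myeloid and dendritic markers moved in the same direction. It was 24.1 and 29.8 CPM in eTreg against 13.5 and 14.4 in cTreg, with 3 of 15 tested markers called higher and 1 lower, and 381.1 and 118.8 in Teff against 14.0 and 16.1 in Tnaive, with 13 of 15 called higher and 1 lower. Siglech was at 0 counts in both eTreg libraries and Clec9a at 1 and 0, whereas Csf1r stood at 3.15 and 4.61 CPM in eTreg and 3.71 and 2.28 in Teff. Their part in the Jdp2 level was not tested.

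In Teff against Tnaive, Batf rose by 1.40 ± 0.27 (edgeR adjusted p = 4.16e-04), Jdp2 rose (edgeR adjusted p = 2.95e-07) and Bach1 fell by 0.56 (SE 0.17, edgeR adjusted p = 0.0145), 3 of 6 members where 35.3% of all genes were called. Bach1 stood at 39.9 and 33.5 CPM in Teff against 54.9 and 53.0 in Tnaive, with no overlap. Without Tnaive 1 the Bach1 change was -0.53 and without Teff 2 it was -0.44, neither called (edgeR adjusted p = 0.0731 and 0.145). In Treg, Bach1 stood at 38.5 and 37.8 CPM in eTreg against 47.9 and 47.0 in cTreg (-0.31 ± 0.17, edgeR adjusted p = 0.185), also with no overlap, and was called lower with those 2 groups alone in the model (edgeR adjusted p = 0.00599).

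Junb and Fosl2 were called in some sorted populations only when all groups other than the 2 compared were left out of the model. Junb stood at 416.0 and 507.8 CPM in eTreg against 261.6 and 299.4 in cTreg, with a log2 change of 0.72 ± 0.65 (edgeR adjusted p = 0.465, and 7.24e-05 with the 2 groups alone). Fosl2 stood at 15.6 and 21.7 CPM in eTreg, 8.37 and 8.62 in cTreg, 18.4 and 17.8 in Tnaive and 20.0 and 17.3 in Teff, so cTreg lay lowest and the other 3 overlapped. The Fosl2 change was 1.13 ± 0.79 in eTreg against cTreg (edgeR adjusted p = 0.32, and 2.35e-05 with the groups alone) and -1.09 ± 0.79 in cTreg against Tnaive (edgeR adjusted p = 0.536, and 1.71e-05 with the groups alone). The shared spread of these genes includes the germline and YFP sets, where Fosl2 differed by up to 6.21-fold between libraries of 1 group. It also includes Tnaive and Teff of the sorted set, where Junb differed 2.96-fold and 3.87-fold between libraries. Over all genes the full model called 31.1% in eTreg against cTreg and 12.2% in cTreg against Tnaive. Junb in conventional cells differed within groups, at 215.0 and 636.2 CPM in Tnaive and 220.9 and 855.7 in Teff, and the change was 0.34 ± 0.65 (edgeR adjusted p = 0.739).

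**Figure D4:**
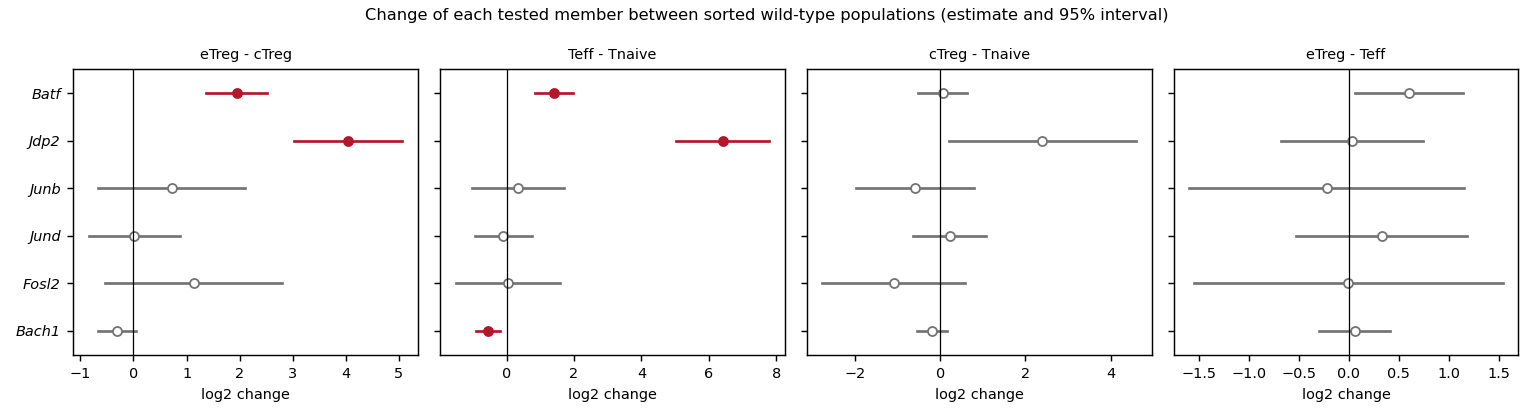
Log2 change (horizontal) of each tested member between the sorted wild-type populations; points are the edgeR estimates, lines their 95% intervals, and red marks an adjusted p below 0.05. Batf and Jdp2 are called higher in both effector populations and Bach1 lower in Teff, and no member is called between Treg and conventional cells of the same state; the fitted Jdp2 value in Teff against Tnaive and in cTreg against Tnaive depends on 2 Tnaive reads.

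Between Treg and conventional cells of the same state, no member was called. In cTreg against Tnaive 12.2% of all genes were called and 0 of 6 members, by edgeR and by DESeq2, with 1 at an unadjusted p below 0.05. In eTreg against Teff 15.5% were called and 0 of 6 members by both tools, again with 1 at an unadjusted p below 0.05, Batf (0.60 ± 0.26, edgeR adjusted p = 0.145). Jdp2 levels in eTreg and Teff overlapped (0.03 ± 0.34, 95% interval -0.68 to 0.74). Jdp2 in cTreg had 12 reads against 2 in Tnaive, a ratio of 5.74 (exact 95% interval 1.28 to 52.8). Jund stood at 520.3 and 517.5 CPM in cTreg, 496.9 and 553.3 in eTreg, 409.6 and 481.8 in Tnaive and 374.3 and 462.0 in Teff, and was not called in the 4 sorted comparisons. With only cTreg and Tnaive in the model, Jund was called higher in cTreg at 0.23 (edgeR adjusted p = 0.0249). In the difference of the effector changes between Treg and conventional cells, edgeR called 0 of 6 members and 5.42% of all genes, with 1 member, Jdp2, at an unadjusted p below 0.05 and 0 called by DESeq2. In that difference the Jdp2 estimate rests on the 2 Tnaive reads.

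Of 17 tested bZIP genes outside AP-1, 9 rose and 3 fell in eTreg against cTreg, where 31.1% of all genes were called, and 9 rose and 3 fell in Teff against Tnaive, where 35.3% were. Maf, the c-MAF factor, rose to 725.5 ± 16.3 from 25.5 ± 5.24 CPM in eTreg and to 441.9 ± 107.1 from 7.81 ± 1.25 in Teff. Bach2, which restrains effector differentiation, fell to 57.5 ± 6.11 from 273.8 ± 7.64 CPM in eTreg and to 48.9 ± 2.11 from 279.8 ± 2.89 in Teff. Cebpa stood at 50.1 ± 11.4 CPM in eTreg against 0.144 ± 0.0629 in cTreg (edgeR adjusted p = 9.6e-07) and at 48.0 ± 25.7 in Teff, where Tnaive had 0 counts. Both IRF partners rose with Batf, Irf4 by 1.71 ± 0.13 in eTreg and 2.53 ± 0.14 in Teff, and Irf8 by 0.96 ± 0.32 and 3.55 ± 0.36; Irf8 is also a dendritic cell factor, and its part in the Teff libraries was not tested. Of the 17 AP-1 and ATF genes, 3 rose and 1 fell in eTreg (Atf6, Crem and Creb3l2 up, Atf7 down) and 3 rose and 2 fell in Teff. Of the 15 MAP kinase genes, 1 rose and 3 fell in eTreg and 2 rose and 2 fell in Teff.

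In WT Treg against Tconv, gates that do not separate effector from resting cells, Jdp2 was the member that rose. It stood at 2.72 and 5.62 CPM in WT Treg against 1.59 and 0.803 in Tconv (1.78 ± 0.54, edgeR adjusted p = 0.0271), where 18.7% of all genes were called. Without WT Treg 2 the change was 1.20 (edgeR adjusted p = 0.216), without Tconv 2 it was 1.37 (0.183), and with the 2 groups alone the adjusted p was 0.209. Batf stood at 46.1 and 82.9 CPM against 31.7 and 58.0 (0.51 ± 0.28, edgeR adjusted p = 0.232), and was called higher without WT Treg 1 (0.89, edgeR adjusted p = 0.0407) and without Tconv 2 (1.03, edgeR adjusted p = 0.0347). Fosl2 stood at 119.6 and 256.0 CPM in Tconv against 47.4 and 168.2 in WT Treg (-0.81 ± 0.65, edgeR adjusted p = 0.46). Bach1 stood at 64.7 and 73.6 CPM in Tconv, above both WT Treg libraries (-0.41 ± 0.17, edgeR adjusted p = 0.113).

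Correlations over the 26 libraries, each centred on the mean of its sort set, describe which genes had the most similar pattern. Libraries of a set were alike in depth and may share sorting, and no test is given. Jund and Fosl2 (r = 0.699), Junb and Jund (0.68) and Junb and Fosl2 (0.55) were the members most alike, and Jdp2 and Bach1 had opposite patterns (-0.709). Batf and Jdp2 had an r of 0.44. Among 9667 genes of at least 5 CPM, those most like Batf were Tox2 (0.908), Cebpa (0.881) and Ttbk1 (0.869). The 26 libraries include both Batf deletions, where Batf was lost by design and Cebpa was called lower. Genes most like Jdp2 were Hpn (0.947), Plxnb2 (0.947) and Ptpn7 (0.942). Junb was most like Ier5 (0.869), Ppp1r15a and H3f3b, and Jund most like Prr12 (0.979), E4f1 and Fmnl1. Fosl2 was most like Cnnm2 (0.913), Rce1 and 4632428N05Rik, and Bach1 most like Nckap5l (0.928), Vps37b and Zfp592.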

How the data were processed

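Read counts per gene were deposited by the authors as whole numbers for 26 libraries, and were aligned to mm10 with STAR 2.6.1c per the submitters' processing notes. How strand was treated in counting is not given in the labels or file headers, and 4 columns that match no sample label were not used. In R 4.3.3, edgeR 4.0.16 kept 12227 of 24411 genes by its expression filter, 6 of the 9 members among them, scaled libraries by TMM and fitted 1 robust quasi-likelihood model to all 13 groups with 13 residual degrees of freedom. Values are TMM-scaled CPM; changes are log2 ± SE, and a call is a Benjamini-Hochberg adjusted p below 0.05 over all tested genes. DESeq2 1.42.0, other scalings, no filter, the compared groups alone, a replicate block, robust off and leaving out each library were tried. The fit was tested on simulated counts. Members and gene lists were chosen with earlier results of these data known. All members are named, and up to 4 called genes with the smallest p per list and comparison. Levels per kilobase use GENCODE M21 exons. Intervals of count ratios cover counting error only: they pool the reads of a group and leave out the spread between its libraries. They also treat reads as independent, which amplified reads are not.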

Additional observations from a re-analysis of the deposited data

How the results depend on the processing

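With 2 libraries a group, limits come from the wide spread of Junb, Jund and Fosl2 and from few Jdp2 reads; Batf2, Batf3 and Fosl1 were too low to test. Of 773 values recomputed for single members under the alternatives, 736 stayed on their side of the threshold, 30 gained a call and 7 lost one; none that was called changed sign. Of 644 values called in neither fit, 46 changed sign. Numbers of members called, out of 6, were as follows. With a replicate block they were 2 in BATFKO Treg, 2 in BATFcKO Treg_YFP, 1 in Foxp3R397W Treg, 3 in Foxp3KO Treg, 3 in WT Treg against Tconv, 2 in eTreg against Teff, 3 in eTreg against cTreg and 2 in the difference of the Batf deletions. No paired design is stated: same-numbered libraries deviated together across genes with r of 0.428 to 0.511 in the germline set, 0.199 in the YFP set and 0.0667 to 0.205 in the sorted set, each comparison has only 2 such pairs, and the block's calls are a hint only. Under the block Jdp2 was called lower in BATFcKO Treg_YFP (edgeR adjusted p = 0.0102) and in Foxp3R397W Treg (0.0405), Jund lower in BATFKO Treg (-0.33, 0.0326), and no relative higher in either Batf deletion; Jdp2 (3.61, 0.0212) and Jund (-0.60, 0.0356) were called in the difference of the deletions, Batf lower (-0.60, 0.0127) and Bach1 higher (0.35, 0.00717) in Foxp3KO Treg, Fosl2 (-0.95, 0.0368) and Bach1 (-0.41, 0.00764) lower in WT Treg against Tconv, Batf (0.61, 0.0135) and Jund (0.33, 0.0109) higher in eTreg against Teff, and Bach1 lower (-0.31, 0.0225) in eTreg against cTreg; in the Foxp3 sets, which share no numbers, it acts through the shared spread. With only the groups compared in the model the numbers were 0 in BATFKO Treg, 2 in BATFcKO Treg_YFP, 4 in Foxp3KO Treg, 0 in WT Treg against Tconv, 2 in cTreg against Tnaive, 5 in eTreg against cTreg and 1 in the difference of effector changes (Fosl2, 1.09, edgeR adjusted p = 0.00911). In BATFcKO Treg_YFP they were 2 with library totals, with DESeq2 and without the low-count filter, and that filter's removal gave 1 in the difference of the Batf deletions. Leaving out single libraries gave 1 to 2 in BATFKO Treg, 0 to 1 in BATFcKO Treg_YFP, 0 to 1 in Foxp3R397W Treg, 0 to 2 in WT Treg against Tconv and 2 to 3 in Teff against Tnaive. The cause of these moves was not tested. Over all genes the calls ranged from 0 (groups alone) to 1036 (block) around 329 in BATFKO Treg, from 70 (without BATFcKO Treg_YFP 2) to 1115 (block) around 249 in BATFcKO Treg_YFP, from 322 to 1903 (block) around 749 in Foxp3R397W Treg, from 413 (without Foxp3KO Treg 2) to 4155 (groups alone) around 1101 in Foxp3KO Treg, and from 548 (groups alone) to 4168 (block) around 2292 in WT Treg against Tconv. In the sorted set they ranged from 990 to 2897 around 1492 in cTreg against Tnaive, 1186 to 3609 around 1892 in eTreg against Teff, 2695 to 5973 around 3800 in eTreg against cTreg and 3357 to 6486 around 4312 in Teff against Tnaive, and the differences reached 139 and 1641 with the block, against 0 and 663.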

Other observations

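The genes around Batf on chromosome 12 were looked at after their values were seen, because Jdp2 is its neighbour. Within 1 Mb of Batf, 22 other genes were tested. In BATFKO Treg 1 of them was called, where 2.69% of all tested genes were. It was Tgfb3, which encodes a TGF-beta ligand. Tgfb3 rose by 2.29 on the log2 scale (edgeR adjusted p = 0.00191) and lies 347.7 kb from Batf. The others ran from -0.53 for Prox2 to 0.84 for Jdp2. In BATFcKO Treg_YFP 0 of the 22 were called by edgeR, where 2.04% of all tested genes were. Tgfb3 changed by 0.13 there (edgeR adjusted p = 0.965), and Jdp2 was the lowest at -2.76. Fos, between Jdp2 and Tmed10, changed by -0.46 and 0.74 in the germline and the Foxp3-Cre deletion (edgeR adjusted p = 0.955 and 0.844).

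Junb, Jund and the summed level of the immediate early genes were lower in every library of the sorted set than in any other library. Junb ran from 215.0 to 855.7 CPM in the sorted set and from 915.2 to 5956 in the other 4. The summed level of the 24 immediate early and dissociation stress genes ran from 2202 to 3175 CPM in the sorted set and from 4580 to 15160 in the others. Jund ran from 374.3 to 553.3 CPM in the sorted set and from 565.7 to 2186 in the others. These levels are given side by side and were not tested. No library links the sets, and whether they were sorted together is not known here. The WT Treg gate does not separate cTreg from eTreg, and Junb stood at 2620 and 5956 CPM there against 261.6 to 507.8 in cTreg and eTreg. In Tconv, Junb stood at 1915 and 3682 CPM against 215.0 to 855.7 in Tnaive and Teff. The parts of set and cell state in these levels were not tested.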
